A study of Mus musculus with 10 samples.

Results

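Chaperones and endoplasmic reticulum (ER) stress genes were examined as a list of 41 genes in the cortex of 5XFAD mice with or without neuronal deletion of Idol. The members were chosen by symbol, from the heat shock protein families, the folding enzymes of the ER and the regulators of both stress responses, and each was found among the 53700 gene identifiers of the deposited counts through its Ensembl identifier. All 41 had more than 10 reads in total and entered the test. The experiment comprised 10 libraries of cortex from female mice at 4 months of age. GEO's labels put 5 in the group 5XFAD;Neu cKO and 5 in the group 5XFAD. Every mouse carried the 5XFAD transgenes, human genes with mutations of familial Alzheimer's disease driven in neurons by Thy1 sequence. The 5XFAD;Neu cKO mice also carried floxed Idol (Mylip), which encodes a ubiquitin ligase of lipoprotein receptors, together with Camk2a-Cre, which is active in excitatory neurons of the forebrain. The labels mark the 5XFAD group as WT, which the study defines as wild type for Idol. RNA of whole cortex was measured from 3′ ends of transcripts, so values are a mean over all cell types, and fewer cells of a type and less RNA per cell cannot be told apart.

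Cells keep protein folding in check with parallel systems. In the cytosol and mitochondria, HSP70 and HSP90 chaperones work with J-domain proteins and nucleotide exchange factors, and the transcription factor HSF1 induces them after heat or proteotoxic stress. In the ER, BiP (encoded by Hspa5), GRP94 (Hsp90b1), the lectins calnexin and calreticulin and the disulfide isomerases fold secreted and membrane proteins, and the unfolded protein response raises their transcription through the sensors IRE1, PERK and ATF6. Accumulation of amyloid in brain is one of the settings in which both systems have been studied.

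Reads on genes numbered 4320504 to 7466192 in the 5XFAD libraries and 5148499 to 7246659 in the 5XFAD;Neu cKO libraries. Values below are CPM, the counts of a gene scaled to library size with TMM factors, and changes are log2 fold changes of 5XFAD;Neu cKO against 5XFAD with their standard error (SE). Mylip itself was not lower in the 5XFAD;Neu cKO libraries by this 3′ count. It stood at 11.2 CPM ± 2.27 (SD, n = 5) in 5XFAD and 14.8 ± 4.90 (n = 5) in 5XFAD;Neu cKO (log2 fold change 0.39, SE 0.25, edgeR adjusted p = 0.777), and the sources used here do not say which exons are deleted or whether the 3′ reads lie in them. Groups are therefore called by their labels. On the first principal component, 5XFAD replicate 2 stood apart at −21.1, the other libraries lying between −8.37 and 9.68. The 5 markers of excitatory neurons summed to 1937 to 2405 CPM in every library. The summed level of 8 microglial markers was 314 to 459 CPM in 5XFAD and 241 to 285 in 5XFAD;Neu cKO, with 8 of 8 lower, 4 of them past the threshold, and that of 5 red cell genes was 6.34 to 51.4 and 46.9 to 211. Oligodendrocyte markers were below 0 for 6 of 6, with a median of −0.28 and 0 past the threshold (summed 1903 to 2793 CPM in 5XFAD and 1714 to 2699 in 5XFAD;Neu cKO). Astrocyte markers were below 0 for 5 of 6, with a median of −0.19 and 1 past the threshold (summed 3426 to 4043 CPM and 3322 to 3838 CPM). Their part in the results below was not tested.

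No member passed an adjusted p of 0.05 in edgeR, 0 of 41 against 0.218% of the 19268 genes tested. The smallest adjusted p was 0.310. At an unadjusted p under 0.05 there were 7 members, or 17.1%, against 7.95% of all genes. This count depended on the fit, with 4 members (9.76%, against 7.07% of all genes) by DESeq2, 5 (12.2%, against 7.97%) in a robust fit and 4 (9.76%, against 6.94%) without 5XFAD;Neu cKO replicate 3. It rose to 9 (22%, against 6.79%) with the replicate number as a block and to 8 (19.5%, against 8.65%) without 5XFAD;Neu cKO replicate 1. Of the 7, 6 were lower in 5XFAD;Neu cKO (Pdia3, Canx, Hspa5, Bag3, Hspe1 and Bag1) and 1 was higher (Dnajb5). DESeq2 also called 0 of the 32 members to which it gave an adjusted p, with 0.0727 for Canx as the smallest. Of the 5820 genes to which it gave one, it called 1.25%. Fitted changes were below 0 for 24 members and above 0 for 17, with a median of −0.055 beside −0.00056 for all genes. The groups did not overlap in CPM for 1 member, Canx, or 2.44% against 1.3% of all genes.

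**Figure D1:**
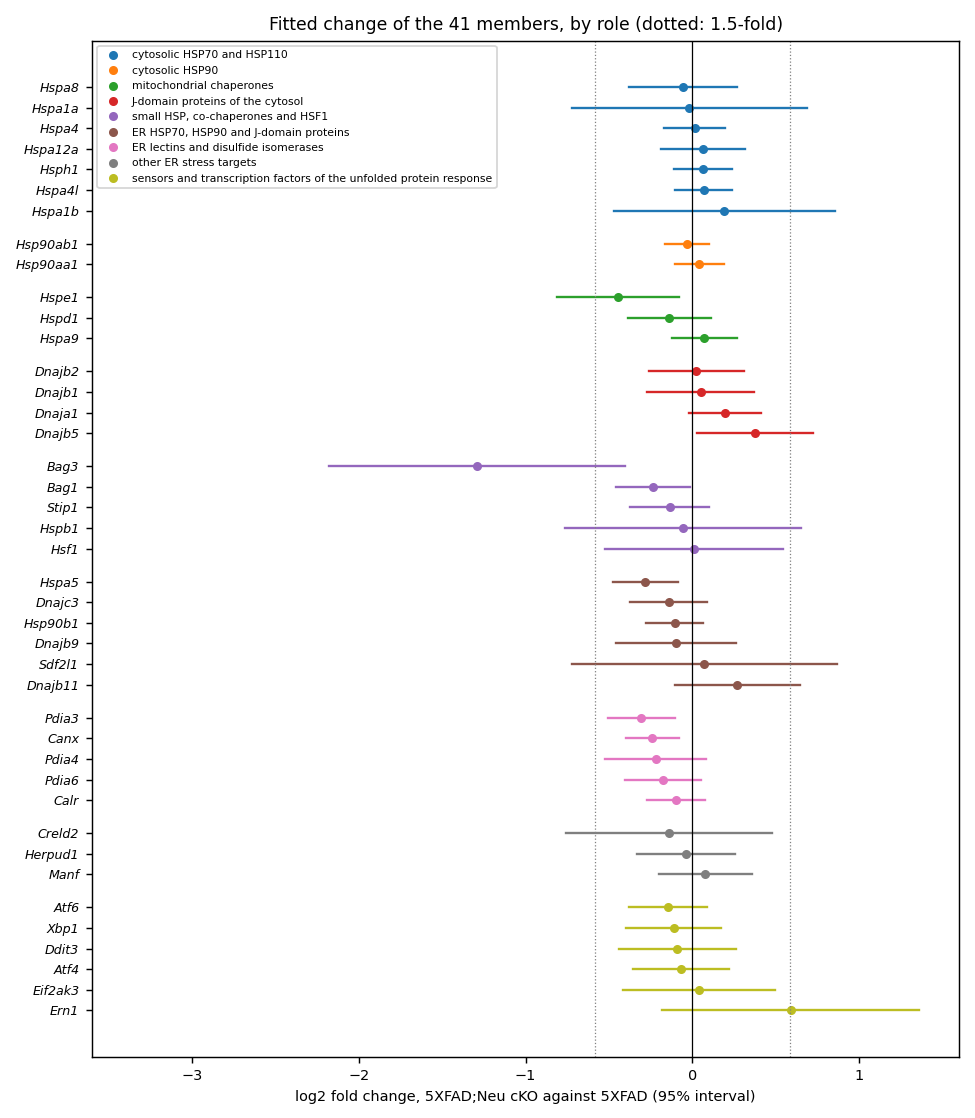
Fitted log2 fold change of each of the 41 members (point) with its 95% interval (line), 5XFAD;Neu cKO against 5XFAD (5 libraries each), coloured and grouped by role. Negative values are lower in 5XFAD;Neu cKO, dotted lines mark a 1.5-fold change, and the point farthest from 0 is Bag3 at −1.29.

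The 14 members that fold proteins in the ER or are targets of ER stress had a lower median than the rest. Of these, 11 were below 0 and 3 above, with a median of −0.12 and a range of −0.31 to 0.27. The remaining 27 members had 13 below 0 and 14 above, with a median of 0.0069. None of either group passed the threshold, and the difference between the groups was not tested, since members of a pathway are not replicates.

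The ER lectins and disulfide isomerases were all below 0 in 5XFAD;Neu cKO, 5 of 5 with a median of −0.22. Pdia3 encodes ERp57, the isomerase that works with both ER lectins on glycoproteins. Its level in the 5XFAD libraries, replicates 1 to 5, was 170.2, 195, 197, 192 and 162 CPM, and in the 5XFAD;Neu cKO libraries 202, 128, 139, 140.2 and 132 CPM. Replicate 1 of 5XFAD;Neu cKO was thus the highest of the 10 libraries, while the other 4 of its group lay below every 5XFAD library. The means were 183 CPM ± 15.8 (SD) and 148 ± 30.6, and the change was −0.31 (SE 0.10, 95% interval −0.51 to −0.10, edgeR adjusted p = 0.310).

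Canx encodes calnexin, the membrane-bound lectin of the ER. Its level was 394, 443, 368, 362 and 373 CPM in 5XFAD and 355, 304, 356, 322 and 304 CPM in 5XFAD;Neu cKO. Every 5XFAD;Neu cKO library lay below every 5XFAD library, though the gap between the nearest libraries was smaller than the SD of either group, 33.0 in 5XFAD and 25.9 in 5XFAD;Neu cKO. The change was −0.24 (SE 0.08, interval −0.40 to −0.08, edgeR adjusted p = 0.332). An exact two-sided permutation test of Canx alone gave p = 0.00794, the smallest that relabelling 5 against 5 libraries allows. Any gene without overlap gives this value, so the test adds nothing to the lack of overlap. Such genes were 1.3% of all genes.

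Calr (calreticulin, the soluble lectin), Pdia4 (ERp72) and Pdia6 (P5) showed smaller or more variable differences. Pdia4 was 67.4, 52.1, 54.3, 63.6 and 48.7 CPM in 5XFAD and 84.1, 38.4, 39.5, 44.4 and 40.4 CPM in 5XFAD;Neu cKO. Here too replicate 1 was the highest of all libraries and the other 4 of its group the lowest (log2 fold change −0.22, SE 0.15, edgeR adjusted p = 0.818). Pdia6 was 77.0 to 116 CPM in 5XFAD and 69.4 to 95.2 CPM in 5XFAD;Neu cKO, with overlapping groups (−0.17, SE 0.11, adjusted p = 0.789), and without 5XFAD replicate 3 the change was −0.096. Calr was 341 to 403 CPM and 284 to 419 CPM (−0.10, SE 0.09, adjusted p = 0.871).

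**Figure D2:**
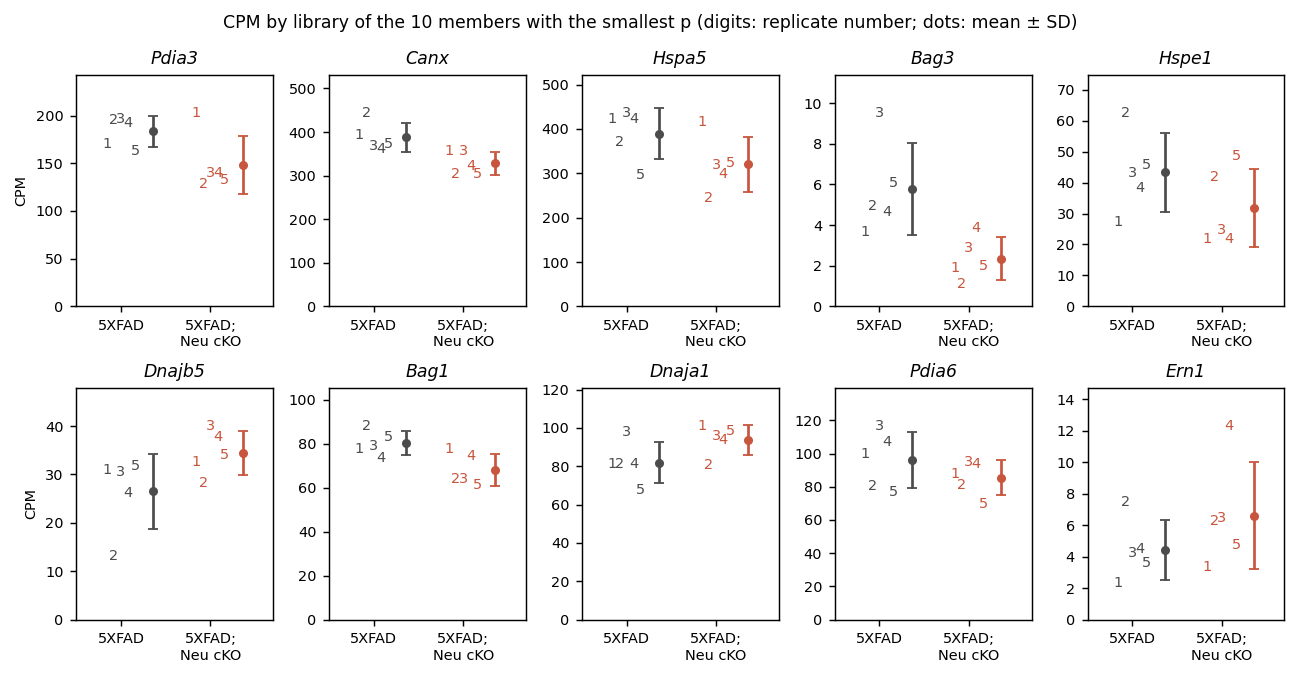
CPM in each library (digits, the replicate number) of the 10 members with the smallest p, with the mean and SD of each group beside them (dark, 5XFAD; red, 5XFAD;Neu cKO; 5 libraries each). Only for Canx, of these 10, do the groups not overlap; for Pdia3 and Hspa5, 5XFAD;Neu cKO replicate 1 lies at the level of the 5XFAD libraries.

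Among the ER chaperones, Hspa5 encodes BiP, the HSP70 of the ER and the classical target of the unfolded protein response. It stood at 422, 369.8, 436, 423 and 296 CPM in 5XFAD and 416, 245, 319, 298 and 323 CPM in 5XFAD;Neu cKO. Replicate 5 of 5XFAD and replicate 1 of 5XFAD;Neu cKO crossed over to the level of the other group. The means were 389 CPM ± 58.1 and 320.3 ± 61.7, and the change was −0.28 (SE 0.10, interval −0.48 to −0.09, edgeR adjusted p = 0.354). Hsp90b1, the HSP90 of the ER, was 358 to 510.1 CPM and 369.7 to 476 CPM (−0.11, SE 0.08, adjusted p = 0.862). The J-domain partners of BiP did not move one way: Dnajc3 was at −0.14, Dnajb9 at −0.10 and Dnajb11 at 0.27, and Sdf2l1, which works with Dnajb11, was at 0.07. Their standard errors ran from 0.12 to 0.40, and none passed the threshold. Of the other targets of ER stress, Creld2 and Herpud1 were at −0.14 and −0.04 and Manf, a secreted trophic factor, at 0.08.

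The libraries labelled 5XFAD;Neu cKO were not alike in these genes, and 1 of them decided a call. Without replicate 1 of 5XFAD;Neu cKO, Pdia3 passed the threshold at −0.44 (edgeR adjusted p = 0.0121) and Hspa5 at −0.39 (adjusted p = 0.0372), and Pdia4 was at −0.49 (adjusted p = 0.116). In each of the other 9 fits that left out 1 library, 0 members passed. That library also held 24.7% of its reads on mitochondrial genes, against 20.2% to 21.1% in the other 4 of its group. In 5XFAD replicates 1 to 5 this share was 23.5%, 24.7%, 23.3%, 25.1% and 20.9%. The summed oligodendrocyte markers of 5XFAD;Neu cKO replicate 1 were 2699 CPM against 1714 to 2262 in the other 4 of its group. Its red cell genes were 211 CPM against 46.9 to 86.6. The part of these differences in its ER chaperone levels was not tested. Across the 10 fits that left out 1 library, between 10 and 13 of the 14 ER members were below 0, with medians from −0.18 to −0.084.

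In several libraries most ER members were high or low together. Against the mean of the 10 libraries, 13, 7, 12, 12 and 2 of 14 were high in 5XFAD replicates 1 to 5. These counts also hold the difference between the groups. In 5XFAD;Neu cKO, 9 of 14 were high in replicate 1, and 2, 7, 4 and 3 of 14 in replicates 2 to 5. Of the other 27 members, 12, 16, 21, 12 and 11 were high in 5XFAD replicates 1 to 5. In 5XFAD;Neu cKO replicates 1 to 5 these were 13, 9, 15, 19 and 17 of 27. With the group means removed, Hspa5 and Hsp90b1 correlated over the 10 libraries at Pearson's r = 0.861 (exact permutation of the libraries within groups, p = 0.00382, adjusted over 13 pairs 0.0497) and Spearman's rho = 0.867 (p = 0.00590, adjusted 0.0623). Without 5XFAD replicate 5 and 5XFAD;Neu cKO replicate 2, the libraries farthest from the median of Hspa5, r was 0.732. The next were Pdia3 at r = 0.772, Pdia4 at 0.770 and Manf at 0.711, each with an adjusted permutation p of 0.0528, while Canx was at 0.300 (adjusted permutation p = 0.508). Without the same libraries, Pdia4 was at 0.860, Pdia3 at 0.760, Manf at 0.629 and Canx at −0.020. Sdf2l1 went from 0.661 to 0.317, Creld2 from 0.502 to 0.124 and Herpud1 from 0.354 to −0.103. Dnajc3 went up, from −0.064 to 0.101. Of the 13 pairs, 12 were above 0, with a median of 0.622, and 1 passed by r and 0 by rho. These pairs were chosen after the values were seen, and all points share their libraries and scaling. Correlations of Hspa5 with other genes are not given beside them, so these p-values cannot set ER genes apart from genes at large.

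**Figure D3:**
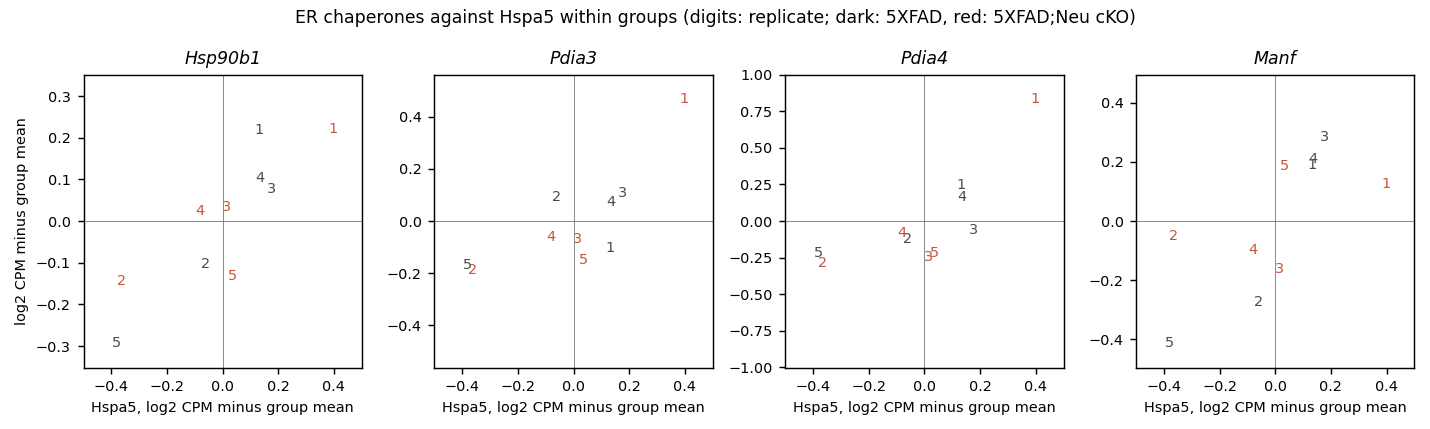
Log2 CPM minus the group mean of Hspa5 (horizontal) and of Hsp90b1, Pdia3, Pdia4 and Manf (vertical) in each library (digits, the replicate number; dark, 5XFAD; red, 5XFAD;Neu cKO). The points run from low left to high right, with 5XFAD replicate 5 and 5XFAD;Neu cKO replicate 2 at the low end of Hspa5 and 5XFAD;Neu cKO replicate 1 at the high end.

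What these ER genes share in sequence was read from their promoters, taken as the 300 bases before the start of the GENCODE canonical transcript in GRCm39. The ER stress response element, the letters CCAAT and CCACG separated by 9 bases, is the site through which ATF6 acts with NF-Y, and it was searched on both strands. It occurred in 25 of 21757 promoters of protein-coding genes (0.115%) and in those of 7 of the 41 members (Calr, Canx, Creld2, Dnajc3, Hsp90b1, Hspa5 and Pdia6). The promoters of Hspa5, Canx, Hsp90b1 and Pdia6 are shown because Hspa5 and Canx were among the 3 members of smallest p and Hsp90b1 was the one that followed Hspa5 most closely; Pdia6 is the isomerase among the 7. Capitals mark the element, which Hsp90b1 holds at 2 places, 1 on each strand.
Hspa5, chr2:34661804-34662103, plus strand: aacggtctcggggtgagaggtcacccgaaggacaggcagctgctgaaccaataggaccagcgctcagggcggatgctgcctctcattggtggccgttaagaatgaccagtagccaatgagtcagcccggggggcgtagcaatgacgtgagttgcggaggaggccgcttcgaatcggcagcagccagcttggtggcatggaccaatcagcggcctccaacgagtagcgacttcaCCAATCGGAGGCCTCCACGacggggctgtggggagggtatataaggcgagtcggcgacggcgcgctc
Canx, chr11:50216530-50216829, minus strand: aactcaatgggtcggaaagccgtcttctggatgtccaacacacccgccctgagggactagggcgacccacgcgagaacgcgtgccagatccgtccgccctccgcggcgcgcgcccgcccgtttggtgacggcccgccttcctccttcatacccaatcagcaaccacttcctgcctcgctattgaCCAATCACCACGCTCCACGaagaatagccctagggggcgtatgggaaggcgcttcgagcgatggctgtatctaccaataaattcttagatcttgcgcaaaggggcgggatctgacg
Hsp90b1, chr10:86541379-86541678, minus strand: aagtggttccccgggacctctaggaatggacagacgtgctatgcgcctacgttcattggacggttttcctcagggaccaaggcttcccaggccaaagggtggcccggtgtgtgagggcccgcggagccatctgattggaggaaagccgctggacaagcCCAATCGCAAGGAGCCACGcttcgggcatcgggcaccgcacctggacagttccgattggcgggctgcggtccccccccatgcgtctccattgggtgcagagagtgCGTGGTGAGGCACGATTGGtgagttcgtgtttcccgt
Pdia6, chr12:17316233-17316532, plus strand: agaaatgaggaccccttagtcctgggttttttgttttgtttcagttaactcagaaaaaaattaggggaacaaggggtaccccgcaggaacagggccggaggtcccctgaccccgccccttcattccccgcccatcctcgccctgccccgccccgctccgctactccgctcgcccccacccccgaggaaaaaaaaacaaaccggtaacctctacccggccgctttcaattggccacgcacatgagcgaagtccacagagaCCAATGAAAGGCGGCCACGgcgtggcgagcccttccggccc

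All 7 members with the element were below 0, at −0.28 to −0.10 with a median of −0.14, and 2 of them, Canx and Hspa5, had an unadjusted p under 0.05, against 7.95% of all genes. The 95% intervals of Calr, Creld2, Dnajc3, Hsp90b1 and Pdia6 included 0. Creld2 (SE 0.31) was above 0, at 0.026, in the fit without 5XFAD replicate 2. The 7 ER members without it had 4 below 0 and 3 above, with a median of −0.039, and include Pdia3, the member of smallest p. Of the 18 other genes with the element, 9 had enough reads for the test, 5 below 0 and 4 above. Of these 9, 2 had an unadjusted p under 0.05 and 0 passed. A match is a description of these letters, and no match in this window says nothing about a factor. Of the other elements searched, TGACGTGG (the unfolded protein response element) was in 0.625% of all promoters and in 0 of the members, and TGATGNAA (the core bound by ATF4 with CHOP or C/EBP partners) was in 4.06% and in 2 members, Ddit3 and Herpud1.

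The sensors and transcription factors of the unfolded protein response all had 95% intervals that included 0. Ern1, which encodes the sensor IRE1, was 2.33, 7.51, 4.21, 4.47 and 3.59 CPM in 5XFAD and 3.37, 6.25, 6.43, 12.3 and 4.74 CPM in 5XFAD;Neu cKO, where replicate 4 was high and the groups overlapped (0.59, SE 0.38, edgeR adjusted p = 0.794). Without that library the change was 0.24, and without 5XFAD replicate 2 it was 0.85. Eif2ak3 (PERK) was at 0.04 and Atf6 at −0.15. Of the transcription factors, Xbp1, whose messenger RNA is the substrate of IRE1, was at −0.11, Atf4 at −0.07 and Ddit3 (CHOP) at −0.09, and the smallest adjusted p of these 6 was 0.794. Splicing of Xbp1 and translation of Atf4, through which the pathway is switched on, are not read by counts of 3′ ends.

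In the heat shock system, the cytosolic HSP90 and HSP110 chaperones were among the most precisely measured members and lay close to 0. Hsp90ab1, the constitutive HSP90 and the most abundant member in this 3′ count, was 1138 to 1318 CPM in 5XFAD and 1137 to 1240.2 CPM in 5XFAD;Neu cKO (−0.03, SE 0.07, interval −0.16 to 0.10). Hsp90aa1, the inducible form, was at 0.04 (SE 0.07, interval −0.11 to 0.19). Hsph1, an HSP110 exchange factor for HSP70, and its relatives Hspa4 and Hspa4l were at 0.07, 0.01 and 0.07, each with an SE of 0.09. The stress-inducible HSP70 genes Hspa1a and Hspa1b were low, at 1.88 to 10.1 CPM and 3.99 to 9.92 CPM over the 10 libraries, and their intervals were wide. That of Hspa1a (−0.72 to 0.68) reached past 1.5-fold in both directions and that of Hspa1b (−0.47 to 0.85) past 1.5-fold higher only. Hsf1 was at 0.01 (SE 0.27).

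Of the cytosolic J-domain proteins, which deliver clients to HSP70, 4 of 4 were above 0, with a median of 0.12. Dnajb1 was at 0.05 (SE 0.16) and Dnajb2 at 0.02 (SE 0.14), and each was below 0 in some fits that left out 1 library. Dnajb5 was 31.0, 13.1, 30.6, 26.1 and 31.6 CPM in 5XFAD and 32.5, 28.1, 39.9, 37.7 and 34.0 CPM in 5XFAD;Neu cKO. Replicate 2 of 5XFAD, the library apart on the first component, was low, and without it the change fell from 0.37 (SE 0.17, edgeR adjusted p = 0.564) to 0.21. Dnaja1 was 67.6 to 97.7 CPM and 80.6 to 101 CPM (0.20, SE 0.11, adjusted p = 0.698).

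Among the co-chaperones, Bag3 showed the largest fitted change of all 41 members. Bag3 directs HSP70 clients to selective autophagy and is a target of HSF1, and Bag1 directs them to the proteasome. Bag3 was 3.68, 4.93, 9.51, 4.66 and 6.06 CPM in 5XFAD and 1.87, 1.10, 2.89, 3.87 and 2.01 CPM in 5XFAD;Neu cKO. Only 1 library of each group overlapped with the other group, replicate 4 of 5XFAD;Neu cKO lying above replicate 1 of 5XFAD. These levels rest on 6 to 70 reads per library. The change was −1.29 (SE 0.44, interval −2.18 to −0.40, edgeR adjusted p = 0.354), and the exact two-sided permutation test of this gene alone gave p = 0.0159. It ran from −1.53 to −1.03 over the fits that left out 1 library, and 0 of them passed the threshold. Bag1 was 77.5, 87.8, 78.9, 73.6 and 83.0 CPM in 5XFAD and 77.6, 63.8, 63.8, 74.2 and 61.1 CPM in 5XFAD;Neu cKO, with 3 of the 5XFAD;Neu cKO libraries below every 5XFAD library (−0.24, SE 0.11, adjusted p = 0.587). Stip1, which links HSP70 to HSP90, was at −0.14 and the small heat shock protein Hspb1 at −0.06.

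Of the mitochondrial chaperones, Hspe1 (HSP10) and Hspd1 (HSP60) form the folding chamber of the matrix and Hspa9 (mortalin) is its HSP70. Hspe1 was 27.3, 62.4, 43.1, 38.4 and 45.6 CPM in 5XFAD and 21.9, 41.8, 24.7, 21.7 and 48.6 CPM in 5XFAD;Neu cKO. The groups overlapped widely, and libraries of both fell into a low set near 21.7 to 27.3 CPM and a high set from 38.4 CPM (−0.44, SE 0.18, edgeR adjusted p = 0.479). Without 5XFAD replicate 2 the change was −0.28, and without 5XFAD;Neu cKO replicate 5 it was −0.66. Hspd1 was at −0.14 (SE 0.12) and Hspa9 at 0.07 (SE 0.10). Hspe1 and Hspd1 are transcribed away from a shared promoter. It holds a heat shock element, 3 alternating blocks of GAA and TTC with 2 bases between them, which occurred in 0.483% of all promoters and in 3 members (Hspe1, Hspd1 and Stip1). The promoter of Hspe1 is shown because it serves both genes, with capitals on 2 overlapping matches.
Hspe1, chr1:55126991-55127290, plus strand: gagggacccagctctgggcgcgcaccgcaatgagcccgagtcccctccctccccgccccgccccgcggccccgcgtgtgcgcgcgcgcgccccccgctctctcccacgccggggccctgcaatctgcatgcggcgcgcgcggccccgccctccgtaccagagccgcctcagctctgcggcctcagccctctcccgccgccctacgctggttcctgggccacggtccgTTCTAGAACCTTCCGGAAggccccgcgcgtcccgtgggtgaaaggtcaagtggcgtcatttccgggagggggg

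Hspa8 encodes HSC70, the constitutive HSP70 of neurons, which uncoats clathrin vesicles at synapses. It was 197, 214, 146, 59.7 and 139 CPM in 5XFAD and 126, 106, 145, 224 and 125 CPM in 5XFAD;Neu cKO, a 3.76-fold range over the 10 libraries that did not follow the groups (−0.06, SE 0.16, edgeR adjusted p = 0.982). Gm15459, a processed pseudogene on chromosome 5 and a near-identical copy of its transcript end, matches 217 of its last 300 bases at 100%. The copy was counted 0, 0, 199, 238 and 122 times in 5XFAD and 107, 112, 229, 1 and 164 times in 5XFAD;Neu cKO. The 3 libraries with 0 or 1 read on the copy (5XFAD replicates 1 and 2 and 5XFAD;Neu cKO replicate 4) were the 3 with the highest Hspa8, and in 5XFAD replicate 4, with the lowest Hspa8, the copy took 42.7% of the pair. Summed over both, the range over libraries shrank to 2.16-fold, and the change was −0.06 (SE 0.12, interval −0.30 to 0.18). The same 3 libraries stayed the highest in the sum, at 197, 214 and 225 CPM, and 5XFAD replicate 4 stayed the lowest, at 104 CPM. A count of 0 allows up to 3 reads per library. Hspa8 and this sum were singled out after their values were seen.

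**Figure D4:**
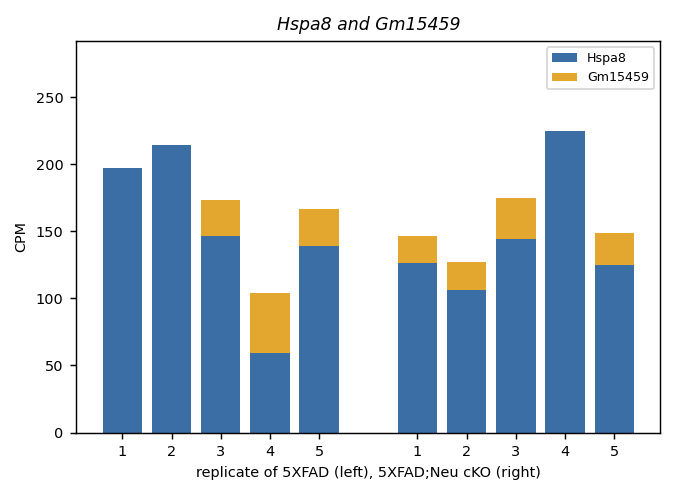
Stacked CPM of Hspa8 (blue) and its copy Gm15459 (orange) in each library, 5XFAD on the left and 5XFAD;Neu cKO on the right. The copy is at 0 or 1 read where Hspa8 is highest (5XFAD replicates 1 and 2, 5XFAD;Neu cKO replicate 4).

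Other members share their 3′ end too. At least 4 of the 41 (Hspa8, Hspb1, Hspe1 and Pdia6) had 70 bases or more at 95% identity or more in a gene elsewhere. Of the genes that match Pdia6, Ptbp2 and Herpud2 had 71.6% and 31.1% as many reads as Pdia6. The copies of Hspb1 and Hspe1 had 1 and 0 reads. At 7 members (Hsp90ab1, Hspa5, Pdia3, Dnaja1, Hspa12a, Ddit3 and Hsf1) the last 300 bases overlap an exon of a gene on the opposite strand. The strand setting of the counting is not given in the sources used here, so the values of these 7 are uncertain. The genes opposite Hsf1 (Dgat1), Ddit3 (Mars1) and Dnaja1 (Smu1) had 130.2%, 65.9% and 41.2% as many reads as the member. Rabepk, opposite Hspa5, had 5.91% as many reads as Hspa5, and Ell3 and Serinc4, opposite Pdia3, had 0 and 20 reads in all. On the same strand, Manf overlaps Rbm15b.

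Genes of the same pathways outside the list gave 5 of 92 with an unadjusted p under 0.05, or 5.43% against 7.95% of all genes, and 0 passed the threshold. The 3 of smallest p were Dnajc10, Pfdn1 and Cct6a. Dnajc10 encodes ERdj5, a disulfide reductase and J-domain partner of BiP. It was 78.7, 79.1, 91.3, 77.5 and 95.8 CPM in 5XFAD and 53.7, 60.3, 77.1, 68.7 and 66.1 CPM in 5XFAD;Neu cKO, so the groups did not overlap, by a narrow margin (−0.37, SE 0.11, edgeR adjusted p = 0.248). Pfdn1, a subunit of prefoldin, which hands actin and tubulin to the TRiC chaperonin, was at −0.28 (SE 0.12, adjusted p = 0.528), and Cct6a, a subunit of TRiC itself, at 0.28 (SE 0.12, adjusted p = 0.545). By list, 10 of 12 other ER folding enzymes were below 0 (median −0.055) and 6 of 6 other mitochondrial chaperones and proteases above 0 (median 0.23). TRiC had 6 of 8 above 0 and prefoldin 4 of 6, and other cytosolic chaperones and co-chaperones 16 of 27. ER-associated degradation had 6 of 14 above 0, the integrated stress response 6 of 13 and the other membrane sensors of the secretory pathway 3 of 6. The summed level of 10 activity-regulated genes, which respond to neuronal firing, was 203 to 436 CPM in 5XFAD and 302 to 499 CPM in 5XFAD;Neu cKO, with overlapping groups. Of these 10, 8 were above 0, with a median of 0.32 and 0 past the threshold.

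**Figure D5:**
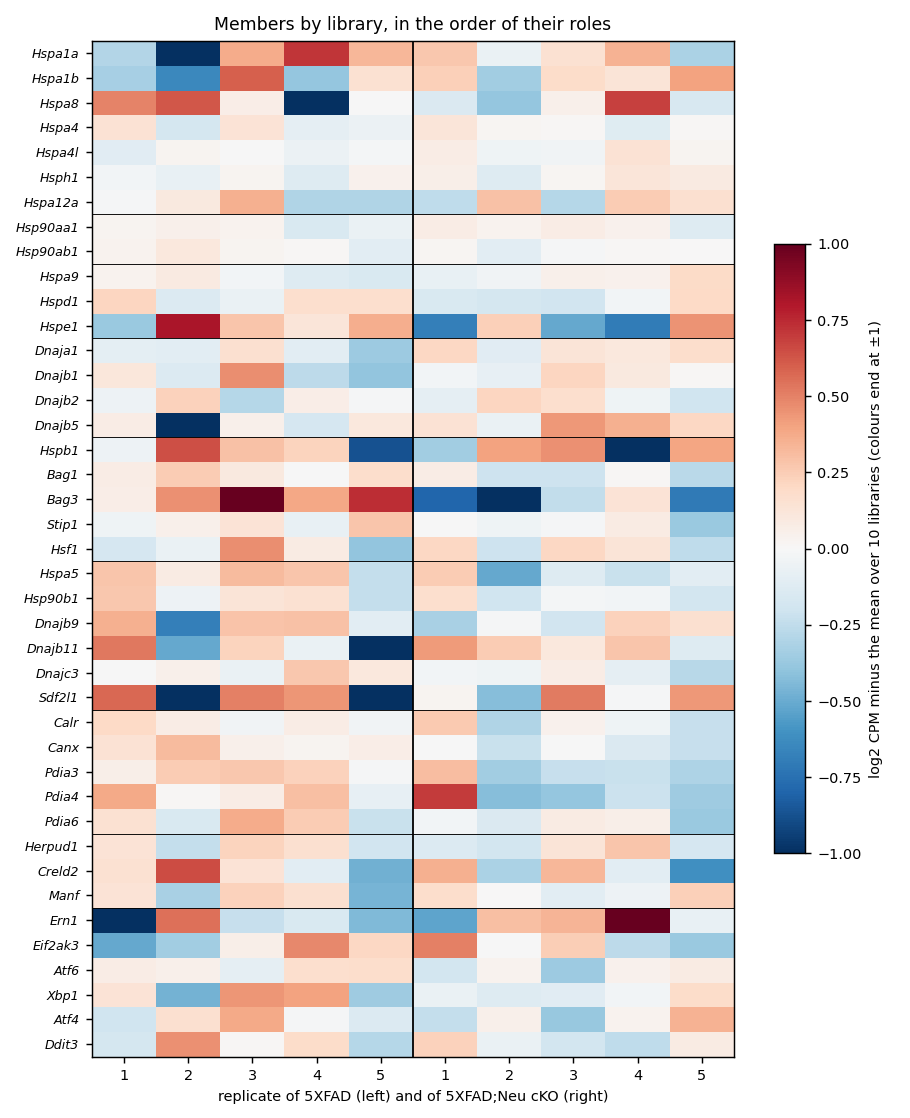
Log2 CPM of each member minus its mean over the 10 libraries (red above, blue below; colours end at 1 either way), with 5XFAD libraries left of the vertical line and 5XFAD;Neu cKO libraries right of it, and horizontal lines between roles. Hspa8, Hspe1 and Bag3 vary by library far more than Hsp90aa1 and Hsp90ab1, and the ER rows of 5XFAD replicate 5 and 5XFAD;Neu cKO replicate 2 are mostly blue.

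The precision of the list differed with level. For 31 of the 41 members the 95% interval lay within a 1.5-fold change either way. The intervals of 7 reached past 1.5-fold higher and those of 6 past 1.5-fold lower. Of the members, 12 had a mean over 100 CPM and 8 a mean under 10 CPM.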

How the data were processed

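The authors made QuantSeq 3′ libraries, trimmed them with bbduk, aligned them with STAR to GRCm39 and counted reads per Ensembl gene with htseq-count, and they deposited these counts without normalization. Identifiers were given symbols from GENCODE. As in the authors' analysis, genes needed a total of more than 10 reads. Counts were compared with edgeR 4.0.16 in R 4.3.3 (glmQLFit and glmQLFTest, TMM, group as the only term), with Benjamini-Hochberg adjustment over the 19268 genes tested and a threshold of 0.05. DESeq2 1.42.0 was an alternative, as were other size factors and filters, a robust fit, leaving out mitochondrial genes, a block for the replicate number and leaving out each library. The steps were tested on simulated data. Single values were compared by exact permutation of the libraries (log2 CPM, prior count 2). Transcript ends were compared with blastn 2.17.0. All 20 within-group pairs of libraries differed by more than sampling noise (chi-square per degree of freedom of at least 5.72). The labels name replicates without saying how they were prepared, so p-values measure the spread between these libraries, part of which may be technical. Full statistics are given for members past the threshold or without overlap and for the 10 of smallest p, and outside the list for the 3 of smallest p. The members, roles and lists were chosen with earlier results of these data known. The summed count of Hspa8 and its copy, co-variation and promoter elements were added after seeing the data. Some results are not reported here.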

Additional observations from a re-analysis of the deposited data

Results flagged for a closer look

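In groups of 5 libraries, a value was set aside for a closer look where its gap to the nearest other value exceeded 0.71 of the range of the group, which chance gives in about 1 of 20 groups. Of the 82 groups examined, 2 for each member, 5 had such a value, all in 5XFAD;Neu cKO. Pdia3 in replicate 1 was 202 CPM, above 128 to 140.2 in the other 4 libraries, and Pdia4 in the same library was 84.1 CPM, above 38.4 to 44.4. Hsp90aa1 in replicate 5 was 512 CPM, below 575 to 589 in the others. Xbp1 in replicate 5 was 55.3 CPM, above 44.5 to 47.6. Hsp90ab1 in replicate 2 was 1137 CPM, below 1214 to 1240.2.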

How the results depend on the processing

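The count of genes past the threshold was 42, and it moved to 73 with DESeq2, 103 with no filter on low counts and 112 with the replicate number as a block. Leaving out 1 library gave 26 to 72 genes, and 0 to 2 members. The 2 members, Pdia3 and Hspa5, passed without 5XFAD;Neu cKO replicate 1 (−0.44, edgeR adjusted p = 0.0121, and −0.39, adjusted p = 0.0372). In every fit with all 10 libraries, 0 members passed. The median of the members ran from −0.089 to −0.0082 when 1 library was left out. The change of the 10 named members was reversed in 0 alternatives, but 15 of the 41 members changed sign in some fit that left out 1 library. The replicate numbers did not pair the libraries, since same-numbered libraries correlated at −0.0809 to 0.0404 in their deviations from the group means and 1 library correlated best with its own number. The block left 0 members past the threshold, with a smallest adjusted p of 0.0613. Members at an unadjusted p under 0.05 numbered 7 at first (17.1%, against 7.95% of all genes) and 9 with the block (22%, against 6.79%). They numbered 5 in the robust fit (12.2%, against 7.97%) and 4 with DESeq2 (9.76%, against 7.07%). Leaving out 1 library gave 4 to 8 (9.76% to 19.5%, against 6.62% to 8.65%). Summing the counts of Hspa8 with those of its copy changed no call. The cause of these shifts was not tested. Low counts limit Bag3, Ern1, Hspa1a, Hspa1b, Hspb1, Sdf2l1 and Creld2.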
